A study of Homo sapiens with 4 samples.

Results

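The genes described here are 10 regulators of the anaphase-promoting complex or cyclosome (APC/C) and of the spindle checkpoint, found by symbol in a comparison of myeloma cells exposed to the compound OSSL_325096 with cells exposed to the solvent DMSO. They are the APC/C activators CDC20 and FZR1, the APC/C inhibitor FBXO5, the checkpoint genes BUB1, BUB1B, BUB3, MAD2L1 and TTK, the securin gene PTTG1 and the separase gene ESPL1. All 10 were matched, each to 1 row of the 57773 genes of the authors' deposited table. The group was chosen by function around CDC20, and CDC20 was itself selected on its fold change in this same comparison, where it was among the highest genes. Its fold change is therefore given as a description.

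RNA was sequenced from KMS12PE and KMS11, established human multiple myeloma lines, each treated with 1 µM OSSL_325096 or with DMSO. There were 4 libraries, 1 for each line and treatment, so that each treatment had 2 libraries and these came from different lines. The compound is known here only by its code, and the treatment time was not given in the sources used here. Analysed was the authors' comparison over both lines, which gives for each gene a log2 fold change of OSSL_325096 over DMSO, its p-value, and a mean RPKM, that of whichever treatment group had the higher mean. RPKM is a read count scaled to transcript length and library size, so levels can be set side by side between genes, but the table does not say which treatment a mean belongs to. Values of single libraries and read depth were not analysed here. Each line had both treatments, but without single-library values the line difference could not be separated from replicate error here. As a check of the cell type, the 7 plasma cell markers looked up stood between 11.4 RPKM for CD38 and 189 RPKM for MZB1 in the authors' deposited table. The B cell marker MS4A1 and the T cell marker CD3D were listed at 0, and PAX5, CD3E, CD14, LYZ and KRT19 were at most 0.0959 RPKM there, while the epithelial marker EPCAM had 15.8 RPKM.

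The APC/C is a ubiquitin ligase that ends mitosis by marking securin and B-type cyclins for destruction. CDC20 activates it in mitosis, and FZR1, also called CDH1, takes over at mitotic exit and in G1. While chromosomes lack attachment to the spindle, the kinase TTK (MPS1) and the kinase BUB1 act at kinetochores, and CDC20 is held in the mitotic checkpoint complex by the products of MAD2L1 (MAD2), BUB1B (BUBR1) and BUB3. Once the checkpoint is satisfied, destruction of securin frees separase, which cleaves the cohesin ring. FBXO5 (EMI1) inhibits the APC/C from S phase to early mitosis. Many of these genes are transcribed in G2 and mitosis in dividing cells.

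CDC20 had the highest fold change of the 10 genes, the value it was chosen on. The gene (ENSG00000117399, chromosome 1, 43824626 to 43828874, plus strand, hg19, 11 exons in its canonical transcript) had a group mean of 127 RPKM in the authors' deposited table, higher than 97.2% of the 11324 genes that reached 1 RPKM in a group mean. The authors' deposited table put its log2 fold change at 1.34, which is 2.54-fold higher with OSSL_325096. The implied standard error (SE), which is the log2 fold change over the normal deviate that its p-value stands for, was 0.95. The 95% interval that this error gives ran from -0.53 to 3.21 and held 0, and the unadjusted p was 0.160 in the authors' deposited table. A gene with this error would have needed a 3.66-fold difference for an unadjusted p of 0.05. The group mean is that of the higher treatment and so holds this rise. Suppose this mean is that with OSSL_325096, and the fold change is the plain ratio of the group means, neither of which is stated. Dividing the mean by the fold change then puts CDC20 at 50.1 RPKM with DMSO, next to BUB3 at 50.6 RPKM. By size, CDC20 ranked 44 from the highest among the 11324 genes, 12 among the 6711 genes of at least 5 RPKM and 3 among the 862 genes of at least 50 RPKM. The HSP70 chaperone genes HSPA1B (2.46) and HSPA8 (2.26) were the ones above it in the last of these sets, by log2 fold change in the authors' deposited table.

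FZR1, the activator that replaces CDC20 at mitotic exit (ENSG00000105325, chromosome 19, 3506271 to 3538328, plus strand), had a group mean of 11.6 RPKM in the authors' deposited table. The CDC20 group mean was 10.9 times as high, a ratio that holds the rise of CDC20. The DMSO levels worked out in the same way, under the same assumptions, gave 4.62 times. For FZR1 the log2 fold change of the authors' deposited table was 0.10 (implied SE 0.88), which is 1.24 below CDC20. No test of the difference between these genes could be made without values of single libraries. FZR1 lay in the middle of all genes, with 61.0% of them at a lower fold change.

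FBXO5 was the lowest of the 10 genes. This APC/C inhibitor (ENSG00000112029, chromosome 6, 153291664 to 153304714, minus strand) had a group mean of 9.47 RPKM in the authors' deposited table and was 1.63-fold lower with OSSL_325096, a log2 fold change of -0.70 with an implied SE of 1.09 and an unadjusted p of 0.519. Only 3.07% of genes of at least 1 RPKM had a lower value. The fold changes of the activator CDC20 and the inhibitor FBXO5 were thus 2.04 apart on the log2 scale, the widest gap within the group.

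Among the 5 checkpoint genes BUB1 had the highest fold change and BUB1B the next, and the other 3 lay close to 0. BUB1, a kinetochore kinase (ENSG00000169679, chromosome 2, 111395275 to 111435691, minus strand), had a group mean of 18.4 RPKM and was put at 0.56 on the log2 scale by the authors' deposited table, where the unadjusted p was 0.519 (implied SE 0.87). BUB1B, whose product BUBR1 binds CDC20 as a pseudosubstrate (ENSG00000156970, chromosome 15, 40453224 to 40513337, plus strand), had 0.32 (implied SE 0.82) at 24.3 RPKM in the authors' deposited table. BUB3 encodes the WD40 partner that BUB1 and BUBR1 share (ENSG00000154473, chromosome 10, 124913793 to 124924886, plus strand). The authors' deposited table put it at -0.14 in log2 fold change (implied SE 0.90). With 50.6 RPKM it was the second most abundant of the 10 transcripts, above either of its partners.

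MAD2L1, the gene of the CDC20-binding checkpoint protein MAD2 (ENSG00000164109, chromosome 4, 120976763 to 120988229, minus strand), had 11.4 RPKM in the authors' deposited table and a log2 fold change of 0.11 (implied SE 0.90). TTK, the kinase gene at the head of the checkpoint (ENSG00000112742, chromosome 6, 80713604 to 80752244, plus strand), had -0.14 (implied SE 1.17) in the authors' deposited table. At 4.29 RPKM it was the least abundant of the group and had the largest implied SE. In the mitotic checkpoint complex, CDC20 had a log2 fold change of 1.34, BUB1B 0.32, MAD2L1 0.11 and BUB3 -0.14 in the authors' deposited table. The implied SEs of these genes ran from 0.82 for BUB1B to 0.95 for CDC20, and CDC20 was chosen on its value. Whether their fold changes differ was not tested, because values of single libraries were lacking. The group mean of CDC20 was 5.24 times that of BUB1B and 11.2 times that of MAD2L1 in RPKM. Between the DMSO levels worked out from the fold changes, under the assumptions given for CDC20, the ratios were 2.58 and 4.75.

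Securin and separase, the inhibitor and the protease it holds, were both listed above 0. PTTG1, the securin gene (ENSG00000164611, chromosome 5, 159848829 to 159855748, plus strand), was put 1.56-fold higher by the authors' deposited table, at 0.64 in log2 fold change with an implied SE of 1.06 and an unadjusted p of 0.548. ESPL1, the separase gene (ENSG00000135476, chromosome 12, 53662083 to 53687427, plus strand), was put at 0.45 (implied SE 1.05), a 1.37-fold difference, by the authors' deposited table. Their group means were nearly equal, 29.1 RPKM for PTTG1 and 29.3 RPKM for ESPL1 in the authors' deposited table.

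**Figure D1:**
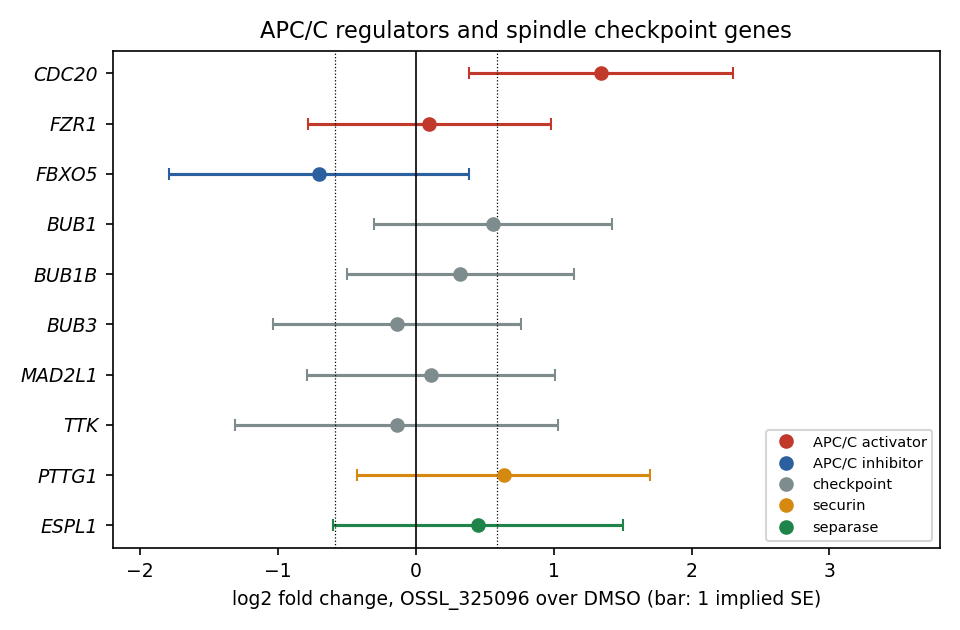
Fold change with OSSL_325096 against DMSO on the log2 scale (horizontal axis) for the 10 genes, coloured by role; each bar spans 1 implied SE to either side, from 2 libraries a treatment, and dotted lines mark 1.5-fold. CDC20 is at 1.34 with a bar that lies above 0, and the bars of the other 9 genes cross 0.

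Of the 10 genes, all of at least 1 RPKM, 7 had a log2 fold change above 0, where 51% of all such genes did. At least 1.5-fold higher were 2, CDC20 and PTTG1, beside a background of 4.95% of genes, and CDC20 alone was at least 2-fold higher (background 0.989%). FBXO5 alone was at least 1.5-fold lower, where 4.95% of all genes were as well. BUB1, at 1.47-fold, lay just inside the 1.5-fold limit and PTTG1, at 1.56-fold, just past it. The median log2 fold change was 0.21 over the 10 genes and 0.0087 over all 11324 genes. Since CDC20 was picked on this contrast, nothing is read from these counts.

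None of these differences passed the authors' test, whose model is not known. At an unadjusted p under 0.05 stood 0 of the 10 genes, beside 0.0442% of all genes of at least 1 RPKM, and those of the 10 ran from 0.160 to 0.912 in the authors' deposited table. That share of all genes is far below what a limit of 0.05 gives with no differences at all. The p-values, and the implied SEs and intervals drawn from them, may thus be poorly calibrated. A lack of small p-values here does not show a lack of difference. After Benjamini-Hochberg adjustment across 11324 genes the p, recomputed from the authors' p-values, was 0.999909 for every one of the 10, and the deposited false discovery rate was 0.999995. The implied SE exceeded the size of the log2 fold change in 9 of the 10 genes, all but CDC20. Implied SEs lay between 0.82 and 1.17, beside a median of 1.10 over all genes.

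**Figure D2:**
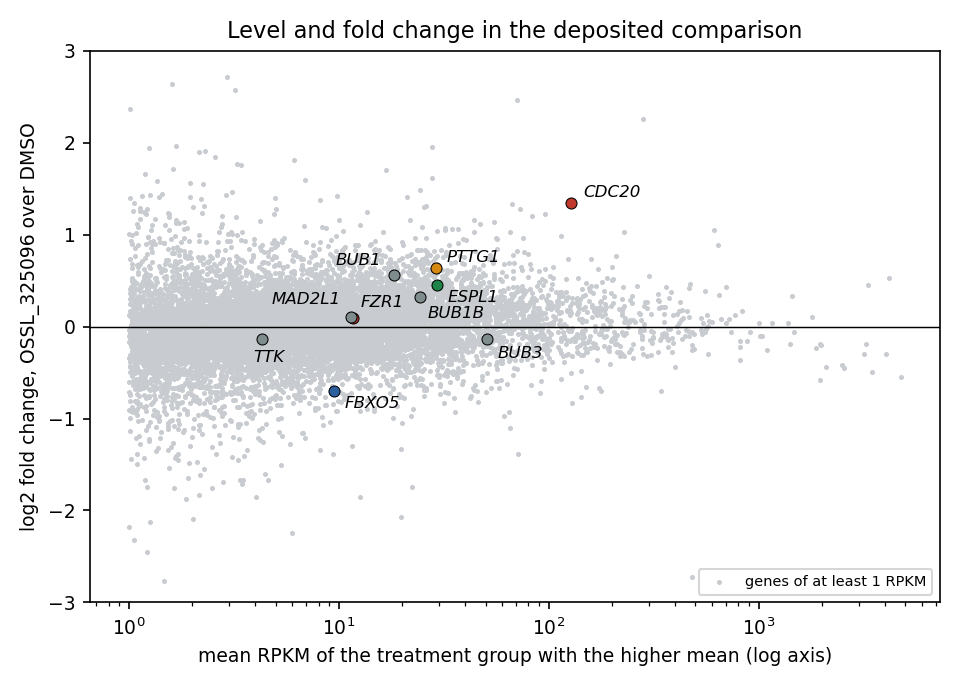
Group mean in RPKM (horizontal axis, logarithmic) against log2 fold change (vertical axis) for the 11324 genes of at least 1 RPKM in grey, with the 10 genes coloured by role as activator (red), inhibitor (blue), checkpoint (grey), securin (orange) and separase (green); 9 genes beyond 3 on the vertical axis are not drawn. CDC20, at 127 RPKM and 1.34, lies above nearly all genes of its level, and the other 9 lie within the cloud.

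Reads from related copies could be shared with these genes. The CDC20 pseudogene CDC20P1 and the PTTG1 relatives PTTG2, PTTG3P and PTTG4P were all listed at 0 RPKM in the authors' deposited table, and CDC20B had 0.00827 RPKM there. The rule for reads with several matches was not given in the sources used here. At its end FZR1 shares 70 bases with MFSD12 on the other strand, a gene that the authors' deposited table put at 22.8 RPKM and 0.55 in log2 fold change. The strand setting is not known, so reads there cannot be assigned. BUB1B shares 3709 bases with PAK6 and with RP11-133K1.2, both on the same strand. These had 0.337 and 0.206 RPKM in the authors' deposited table. MAD2L1 shares 117 bases with RP11-679C8.2 on the other strand, which had 0.0132 RPKM there.

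The 4 genes whose log2 fold change was nearest that of CDC20, among genes of at least 5 RPKM, were taken by the difference in this 1 value over both lines. They were SFN, the gene of 14-3-3 sigma (1.34), the HSP40 gene DNAJB1 (1.32), the long noncoding RNA gene RP11-229P13.23 (1.38) and WDR77, the PRMT5 partner (1.31), all as log2 fold changes in the authors' deposited table. None of the 4 is in the gene lists used here. Their implied SEs differed widely, from 0.92 for DNAJB1 and 1.08 for WDR77 to 1.72 for SFN and 1.98 for RP11-229P13.23, against 0.95 for CDC20.

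The subunits of the complex that CDC20 activates lay within 1.5-fold. Of the 14 APC/C subunit genes, all of at least 1 RPKM, 8 were above 0 and 6 below, and 0 were 1.5-fold from 1 in either direction (median log2 fold change 0.05). In the authors' deposited table the scaffold subunit ANAPC1 had 0.40, the cullin subunit ANAPC2 0.46 and CDC26 0.21. At the other end were ANAPC10, a substrate receptor subunit, at -0.30, ANAPC13 at -0.28 and CDC23 at -0.22 in the authors' deposited table. Of the 3 ubiquitin-conjugating enzyme genes, UBE2S, which extends ubiquitin chains, had 616 RPKM in the authors' deposited table and a log2 fold change of 1.05 (implied SE 1.02). UBE2C, which starts them, had 0.59 (implied SE 0.95) at 60.0 RPKM there, and the less specific UBE2D1 had 0.10 at 2.93 RPKM in the authors' deposited table. UBE2S and UBE2C were both at least 1.5-fold higher by size, beside the same 4.95% of all genes.

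Other checkpoint factors lay within 1.5-fold. Of 10 genes of at least 1 RPKM, out of 11 listed, 7 were above 0 (median 0.16). TRIP13, the ATPase that takes the checkpoint complex apart, had the highest log2 fold change of them, 0.49 (implied SE 0.86), and its adaptor MAD2L1BP (p31comet) had 0.26 in the authors' deposited table. MAD1L1, the kinetochore partner of MAD2, had 0.19 there. KNTC1 and ZW10, subunits of the RZZ complex that recruits MAD1 and MAD2, stood at -0.50 and -0.14 in the authors' deposited table, with MAD2L2 at -0.03. All 4 genes of the chromosomal passenger complex, which corrects faulty attachments, were above 0 (median 0.39). BIRC5, the survivin gene, had 0.68, CDCA8 (borealin) 0.40, INCENP 0.38 and the kinase AURKB 0.36 in the authors' deposited table, so that BIRC5 alone was past 1.5-fold.

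APC/C substrates were split by the phase in which their mRNA is known to be made. Of 13 substrates made in G2 and mitosis, 12 were above 0 (median 0.44), where 51% of all genes of at least 1 RPKM were. At least 1.5-fold higher were 4 and at least 1.5-fold lower 0, beside 4.95% of all genes each way. The highest were CCNB1 (cyclin B1) at 1.20 with an implied SE of 0.91, the kinase gene PLK1 at 0.97 with 0.91, and AURKA at 0.78 with 0.93 in the authors' deposited table. The lowest were NUSAP1, a spindle protein, at -0.06, the kinesin KIF22 at 0.09 and CKAP2 at 0.12 in the authors' deposited table. Of 6 substrates made in G1 and S, 5 were below 0, as 49% of all genes were, and 1 was at least 1.5-fold lower, as 4.95% were (median -0.28). SKP2, an F-box gene, had -0.83 (implied SE 0.92), RRM2 -0.54, the licensing factor CDC6 -0.34, geminin (GMNN), which inhibits licensing, -0.22, thymidine kinase TK1 -0.08 and CDC25A 0.14 in the authors' deposited table. These lists were written with earlier results of these data known. The counts are thus no independent sign of a gap between mitotic and S-phase genes, which was not tested. FBXO5, a gene transcribed from the G1/S transition onwards, had -0.70 (implied SE 1.09), between SKP2 and RRM2 at the low end of the G1 and S list. Whether its value goes with the phase of its transcription was not tested.

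**Figure D3:**
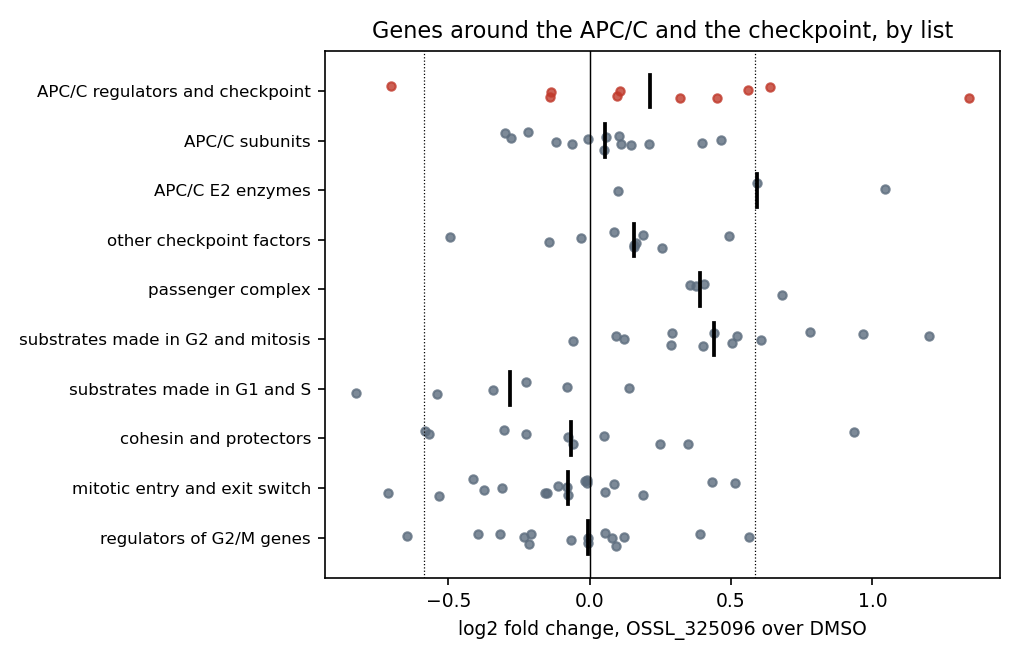
Fold change with OSSL_325096 against DMSO on the log2 scale (horizontal axis) of each gene of at least 1 RPKM, by list; black bars are list medians and dotted lines mark 1.5-fold. The median is 0.44 for substrates made in G2 and mitosis, -0.28 for those made in G1 and S, and 0.05 for the APC/C subunits.

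Genes of cohesin, the ring that separase cuts, and of its protectors were spread around 0. Of 10 genes 4 were above 0, with a median of -0.07 that became 0.0029 when the trend with base composition described further on was removed. SGOL2 and SGOL1, the shugoshins that protect centromeric cohesin, had 0.94 (implied SE 1.23) and 0.35, and PDS5A had 0.25 in the authors' deposited table, while STAG2, SMC3 and PDS5B had -0.58, -0.57 and -0.30 there. In the switch of kinases and phosphatases that sets mitotic entry and exit, 13 of 18 genes were below 0 (median -0.08), 0 were at least 1.5-fold higher and 1, PPP1CB, was at least 1.5-fold lower. The entry phosphatase CDC25B had 0.51, the B56 subunit genes PPP2R5D and PPP2R5A had 0.43 and 0.19, and WEE1, CDC25C and PPP1CB had -0.41, -0.53 and -0.71 in the authors' deposited table. Regulators of G2/M transcription had a median of -0.01 over the 15 genes matched of 16 listed, with 0 past 1.5-fold upward and 1, LIN52, downward. E2F4 had 0.57, FOXM1 0.39 and E2F5 0.12, and the MuvB genes LIN9, LIN54 and LIN52 had -0.32, -0.40 and -0.65 in the authors' deposited table. Over all 9 lists, 8 of the 93 genes were at least 1.5-fold higher and 3 were lower by that much, beside 4.95% of all genes in each direction. The lists were written with earlier results of these data known and the counts were not tested, so nothing is read from them. By the authors' p-values 0 of the 93 had an unadjusted p under 0.05. In RNA from whole cultures, a larger share of cells in mitosis and more mRNA in each such cell cannot be told apart.

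Fold changes in this table moved with the base composition of the transcripts, and the 10 genes cover much of that range. Transcript GC content, the median over a gene's GENCODE 44 transcripts, ran from 38.1% for FBXO5 to 62.9% for FZR1, beside a median of 50.2% over 11104 genes. The median log2 fold change of all genes was -0.17 in the lowest 20% of genes by GC content, where FBXO5, BUB1, MAD2L1 and TTK lie, and 0.23 in the highest 20%, where FZR1 lies. CDC20 (57.1%) and ESPL1 (57.1%) were in the next 20% below it, with a median of 0.13. When the trend with GC content, length and expression was removed by regression, CDC20 had 1.18 and was again the highest of the group, at rank 54 of 11104. The expression term was the mean of the higher treatment group, which for CDC20 holds its rise. The values after removal are thus not independent of the fold changes through this term. FBXO5 went from -0.70 to -0.53 and was then 1.45-fold lower, short of 1.5-fold. BUB1 went from 0.56 to 0.68, which is 1.60-fold and past that size, and PTTG1 from 0.64 to 0.70. FZR1 and TTK changed sign, to -0.14 and 0.07. The number above 0 was 7 before and after, and the median was 0.28 after.

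**Figure D4:**
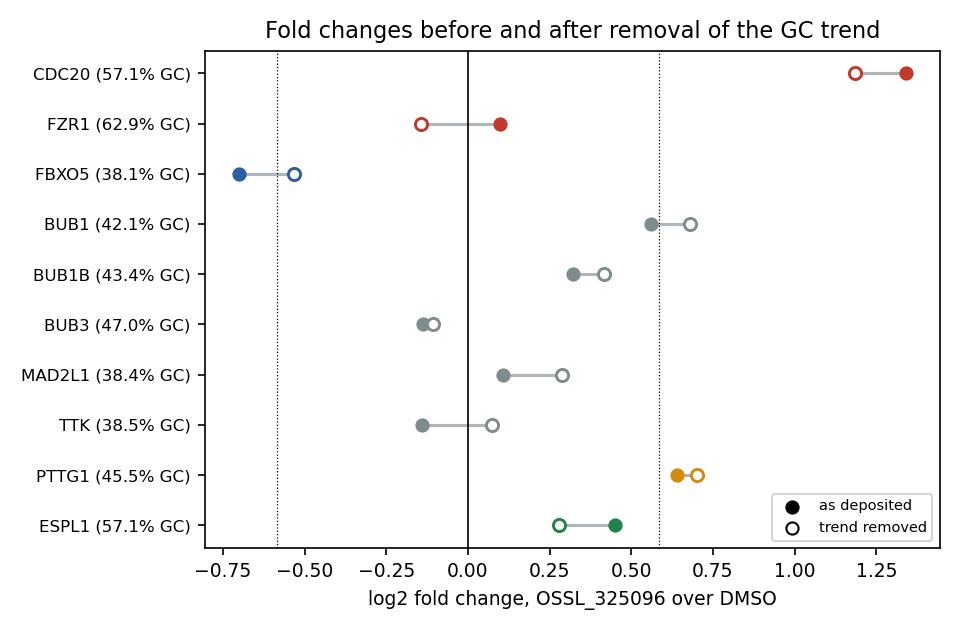
Fold change with OSSL_325096 against DMSO on the log2 scale (horizontal axis) of the 10 genes as deposited (filled) and after the trend with GC content, length and expression was removed (open), with each gene's transcript GC content; dotted lines mark 1.5-fold. CDC20 goes from 1.34 to 1.18, FBXO5 from -0.70 to -0.53, and FZR1 and TTK cross 0.

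Promoter sequence was then described for the members, because genes of this group are known to share elements that time transcription to G2 and mitosis. The cell cycle genes homology region (CHR), TTTGAA, is bound by the MuvB subunit LIN54, and CCAAT boxes by NF-Y. RefSeq windows on GRCh38.p14, from 250 bases before to 50 bases after a gene's start, were found for 8 of the 10 genes, all but BUB3 and TTK. FZR1, FBXO5 and PTTG1 had windows at 2 starts each. The letters TTTGAA, on either strand, were in at least 1 window of 6 of the 8 genes: CDC20, ESPL1, BUB1B, FBXO5, FZR1 and MAD2L1. Over all genes of the RefSeq table the share was 18.2%, and over single windows 15.2%. The letters CCAAT, on either strand, were also in 6 of the 8, CDC20, BUB1, PTTG1, ESPL1, FBXO5 and MAD2L1, beside 39.7% of all genes and 34.6% of windows. The motifs TTTGAA and CCAAT do not overlap in any of the sequences below.

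The 150 bases before the most upstream RefSeq start are printed for the 5 genes with the highest log2 fold changes and for FBXO5, the lowest. They are on GRCh38.p14, 5′ to 3′ on the gene's own strand, and capitals mark TTTGAA and CCAAT or its reverse complement ATTGG.

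CDC20, chr1:43358831-43358980, plus strand: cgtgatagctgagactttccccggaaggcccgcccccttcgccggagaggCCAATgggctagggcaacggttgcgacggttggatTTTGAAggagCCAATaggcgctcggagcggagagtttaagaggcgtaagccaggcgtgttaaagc
PTTG1, chr5:160421705-160421854, plus strand: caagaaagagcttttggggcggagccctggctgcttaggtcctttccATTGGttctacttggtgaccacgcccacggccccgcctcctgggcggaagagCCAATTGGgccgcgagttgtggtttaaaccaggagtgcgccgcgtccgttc
BUB1, chr2:110678064-110678213, minus strand: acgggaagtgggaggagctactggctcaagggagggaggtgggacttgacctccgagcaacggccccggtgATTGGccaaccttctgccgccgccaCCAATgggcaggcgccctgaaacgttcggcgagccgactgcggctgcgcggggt
ESPL1, chr12:53268149-53268298, plus strand: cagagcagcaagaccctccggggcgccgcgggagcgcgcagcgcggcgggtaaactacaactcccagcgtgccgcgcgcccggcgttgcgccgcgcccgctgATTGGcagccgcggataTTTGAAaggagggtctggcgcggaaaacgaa
BUB1B, chr15:40160919-40161068, plus strand: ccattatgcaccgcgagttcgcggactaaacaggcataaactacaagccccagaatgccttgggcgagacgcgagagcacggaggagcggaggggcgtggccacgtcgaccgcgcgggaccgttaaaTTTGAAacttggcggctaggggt
FBXO5, chr6:152983580-152983729, minus strand: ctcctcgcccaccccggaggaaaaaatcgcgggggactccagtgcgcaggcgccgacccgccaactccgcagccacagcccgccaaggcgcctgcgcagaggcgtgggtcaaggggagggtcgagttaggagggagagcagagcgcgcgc

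In CDC20 a TTTGAA begins 65 bases before the start, between CCAAT boxes that begin 100 and 55 bases before it, and another lies on the other strand 178 bases before the start, outside the printed stretch. ESPL1 has TTTGAA 31 bases before the start and a reverse CCAAT 48 bases before it, and BUB1B has TTTGAA at 23 bases with 0 CCAAT in the whole window. BUB1 and PTTG1 have CCAAT boxes without TTTGAA. In PTTG1 the CCAAT beginning at 51 bases and the reverse one at 48 bases overlap. FBXO5 shows neither motif here, but the window of its other start, further downstream, has TTTGAA on the other strand 40 bases before that start and CCAAT boxes before it. In FZR1 the TTTGAA lies 226 bases before the start, and in MAD2L1 it begins 25 bases after it. The motifs are thus in genes with high, low and near-zero fold changes alike. A match of letters is a description of the window and not evidence of a bound site.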

How the data were processed

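RNA of 4 libraries was captured with oligo(dT) beads and primed with random hexamers, per the labels' protocols. Per the series' design text, the authors mapped reads to hg19 and made RPKM values and the comparison in Biomedical Genomics Workbench 5. The model, the scaling, the annotation, the strand setting and the counting rule were not given in the sources used here. As deposited by the authors, the table used here has 57773 genes and 0 columns of single libraries, and gives RPKM as the mean of the higher group, log2 fold change, a signed fold score, and unadjusted, false discovery rate and Bonferroni p-values, per the file headers. The order of the treatments is that of the table's title. Of the genes, 23130 had a fold change, and 11324 were kept, those with 1 RPKM or more in the group mean. For these, Benjamini-Hochberg adjusted p-values were recomputed across all genes. The implied SE assumes that the authors' p-values come from a two-sided normal test. Each treatment had 1 library of each line. The spread behind a p-value may therefore include the difference between the lines, but this depends on the model, which is not known. With unknown depth there is no counting interval.

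Gene identifiers were matched to GENCODE 44 on GRCh37, where 96.1% were found and all 10 members overlapped their entry. GC content and length were medians over a gene's transcripts and were had for 98.1% of genes kept. A regression on GC content, length and expression, with terms up to degree 3, explained 15.8% of the variance; its removal and the adjustment were tested on simulated data. The members and all gene lists were chosen with earlier results of these data known. Genes are named by rule: all members, up to 3 highest and 3 lowest of each list (all, where 6 or fewer were kept), and the 4 nearest to CDC20. No set test was made. Python 3.11.15, pandas 2.3.3, numpy 2.4.6, scipy 1.17.1 and matplotlib 3.10.9 were used.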

Additional observations from a re-analysis of the deposited data

How the results depend on the processing

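The values used here are those of 1 comparison over both lines, so that leaving out a library, a fit of each line and another count model could not be made. No paired analysis was possible because the table holds no values of single libraries. Subtracting the median of all genes left the log2 fold change of CDC20 at 1.33, and its adjusted p stayed above 0.99 with each set of genes tried. At a threshold of 2-fold, 1 member was higher and 0 were lower, and in the 9 lists 2 genes were higher and 0 lower. Once the trend with GC content, length and expression was taken out, 0 members were at least 1.5-fold lower, as also with GC content and length taken from the longest transcript, and 1 list gene was. The rank of CDC20 depended on the minimum level: 3087 of 23130 genes with no minimum, where genes of very few reads have large fold changes, 12 at 5 RPKM and 3 at 50 RPKM. The last minimum, the longest transcript and a count of CHR variants (the letters TTTAAA, or TTCGAA, or the letters CTTGAA besides TTTGAA), which found 8 of 8 genes where 36.7% of all genes have one, were chosen after seeing the data. Among bases before the start alone, the variants were found in 6 of 8 genes, where 33.4% of all genes have one. FZR1 and TTK changed sign once the trend was removed, and the members at least 1.5-fold higher went from 2 to 3, with either measure of GC content and length. Of the counts and CDC20 values not given here, none turned in direction or moved by 1.5 times or more under the alternatives run.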
